A study of Drosophila melanogaster with 12 samples.

Results

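The vacuolar ATPase (V-ATPase) genes were examined in whole adult flies. They were taken as every listed gene whose symbol begins with Vha, which gave 33 genes of the 16997 listed. Of these, 17 were classed as broad genes, those taken to supply the pump in most tissues, and 16 as paralogs, further copies of the same subunits. The classes follow background knowledge of the genes and were set with earlier results of these data known, so the difference in level between them is a description.

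The study asked how flies respond to ubiquitin chains that are not attached to another protein. It used 12 samples in 3 groups of 4, each of 10 whole flies that were 1 day old. The Ub6-GG flies carried a transgene for ubiquitins in tandem that ends in the GG motif and can be conjugated to other proteins. The Ub6-Stop flies carried a version without that end, which cannot be conjugated. The control flies had the same genetic background and no Ub6 transgene. All groups, controls included, were heterozygous for the sqh-Gal4 driver, which follows the spaghetti squash gene and is active in all tissues, and the flies of both Ub6 groups were heterozygous for the transgene, inserted at the Attp40 site. Libraries were made from poly(A)-primed 3′ ends, so long transcripts gain no extra reads, and levels were compared between genes on that basis. Other differences between genes, such as how well the counted gene regions cover their 3′ ends, were not tested. In the release 6 annotation, the median number of 3′ ends was 2 for broad genes and 1 for paralogs.

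The value used for each gene is the authors' mean log2 CPM (CPM is the number of reads scaled to a common library size), 1 value over all 12 libraries. There is 1 value for all samples together, so the groups were not compared here and every result is a level in the 12 libraries together. The mean is computed with a prior count of 2 reads, which lists the 2186 genes with no read at a log2 CPM of 0.25. Removing it gave library sizes from 1055226 to 2366711 (mean 1684423) and a read total for each gene. The sizes were recovered from the 12 distinct levels of genes with 1 read. Whether the authors normalized library sizes is not given, so the recovered sizes need not equal the reads sequenced. A dispersion of 0.146 came with the sizes, which corresponds to a coefficient of variation of 38.2% between libraries beyond counting noise. It puts a relative standard error of 11.1% on the best measured V-ATPase gene and 73.1% on the weakest. Intervals on ratios below are 95% intervals from this dispersion and the reads, under the assumption that it applies to each gene and that genes vary independently.

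The V-ATPase is a rotary proton pump. Its V1 sector, in the cytosol, hydrolyses ATP, and its V0 sector, in the membrane, moves protons into lysosomes, endosomes, synaptic vesicles or, at the cell surface of some epithelia, out of the cell. Many subunits are encoded by several genes in the fly, and some of these are known for particular tissues. Vha100-4 is needed by the acid-secreting copper cells of the midgut, and Vha100-3 and Vha68-3 are known from testis. Vha100-1, classed here with the broad genes, is known best for its role at synapses. In whole flies, fewer cells of a type and less RNA per cell cannot be told apart, so a low level here can be a high level in a small tissue.

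All 33 V-ATPase genes had at least 1 read, and their levels spanned 4 orders of magnitude on the linear scale. Vha13, the G subunit of the stalk that holds the sectors together, was highest, with 1412 CPM after removal of the prior (log2 CPM 10.46, about 28546 reads in all). Vha16-1, the c subunit that forms the proton-carrying ring, followed at 1103 CPM (log2 CPM 10.11). Vha16-2, another c subunit gene, was lowest, with about 2 reads that fell in 2 different libraries (exact Poisson 95% interval 0.242 to 7.22 reads). The 33 genes together took 0.561% of all reads, and Vha13 and Vha16-1 alone made up 44.6% of that.

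**Figure D1:**
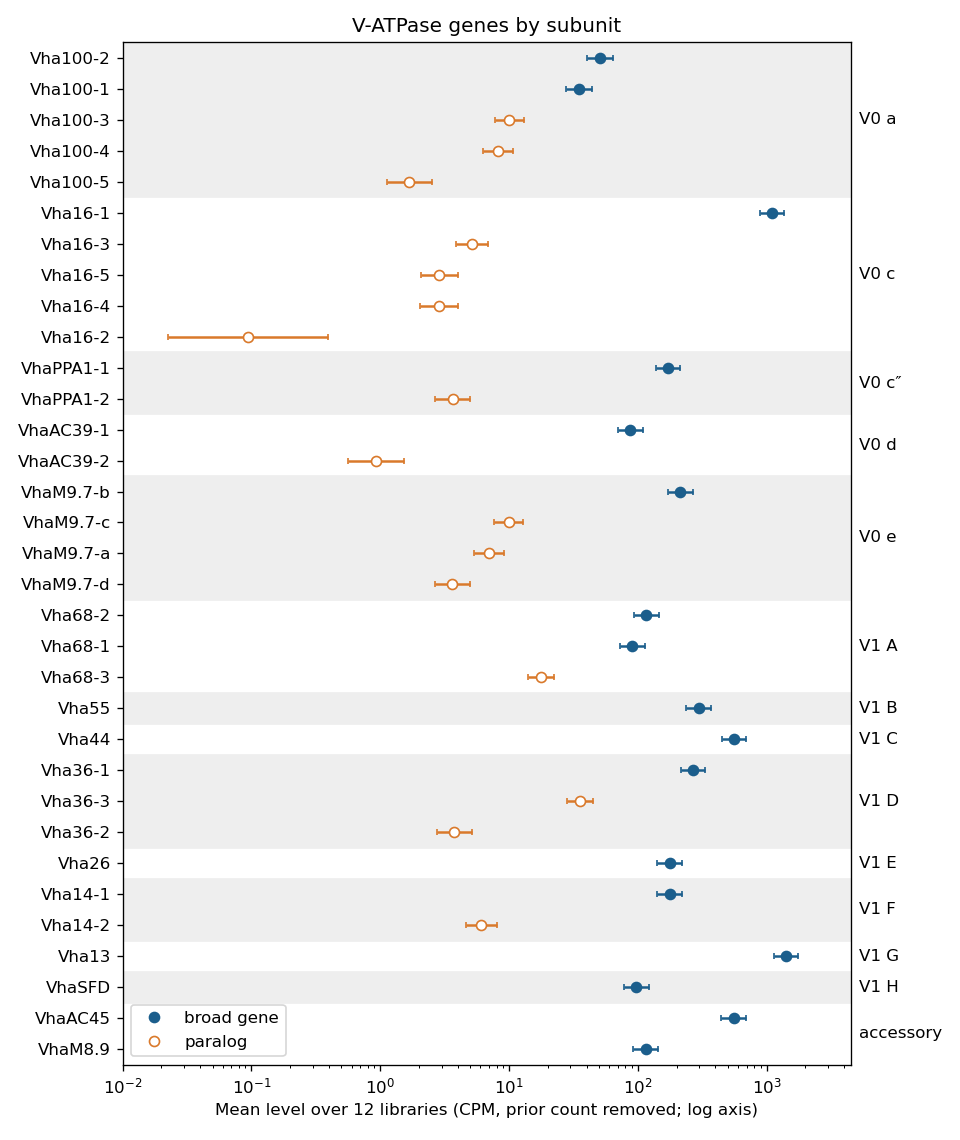
Mean level of each of the 33 V-ATPase genes over the 12 libraries, in CPM with the prior count removed, on a log axis. Points are filled for broad genes and open for paralogs, rows are grouped by subunit as named at the right, and bars are 95% intervals from the recovered dispersion and the reads. The filled points lie between 35.1 and 1412 CPM and the open points between 0.0948 and 35.6 CPM.

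The broad genes were expressed far above the paralogs. The median log2 CPM was 7.47 over the 17 broad genes and 2.49 over the 16 paralogs, a difference of 4.98. Broad genes ranged from 5.18 to 10.46 and paralogs from 0.36 to 5.20, so the classes met at 1 gene of each. These were Vha100-1 at 5.18 and Vha36-3 at 5.20, whose levels differed by less than their error (ratio of Vha36-3 to Vha100-1 1.01, interval 0.734 to 1.40). The broad genes carried 97.9% of the V-ATPase reads and the paralogs 2.11%. Of the paralogs, 8 had fewer than 100 reads in all 12 libraries together, and no broad gene did.

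Against the whole gene list, the median V-ATPase gene stood at percentile 81.8. The median broad gene was at percentile 95.5 and the median paralog at percentile 48.3, near the median of all genes (log2 CPM 2.64). All 17 broad genes and 8 of the 16 paralogs lay above that median. It includes the genes with no read. Over genes with a read alone the median was 3.11, above the median paralog at 2.49. The F-type ATP synthase, the related rotary enzyme of mitochondria, was also divided into main genes and paralogs. These lists were chosen beforehand from background knowledge, so the difference between them is a description too. Its 13 main genes had a median log2 CPM of 9.88 (8.42 to 12.37) and 4 of its paralogs a median of 2.71 (1.84 to 5.20). On the linear scale, the V-ATPase genes summed to 5639 CPM, against 19570 CPM for the main ATP synthase genes.

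**Figure D2:**
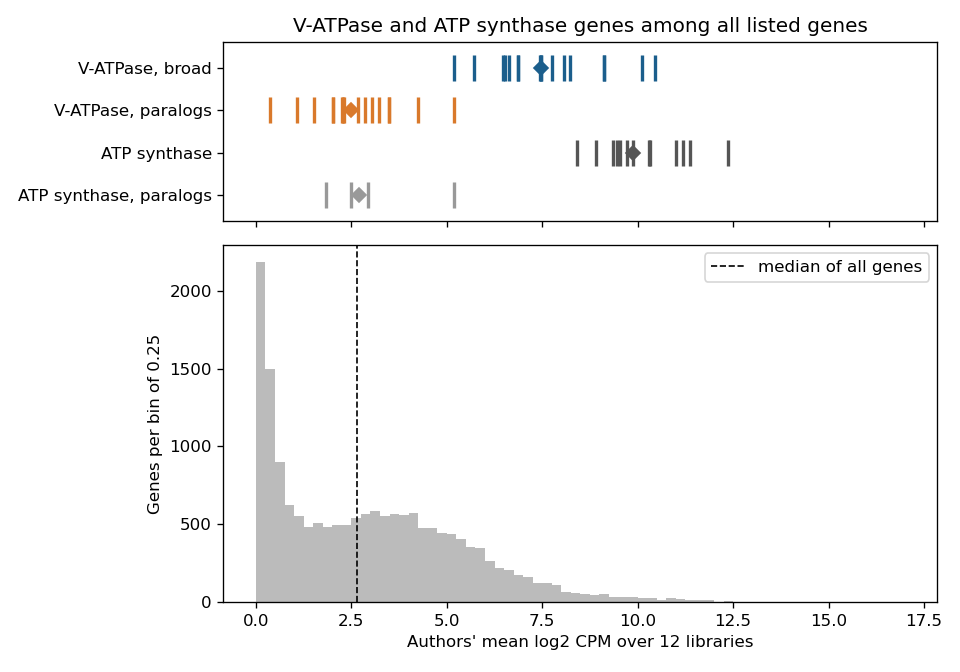
Upper panel, authors' mean log2 CPM of each V-ATPase and ATP synthase gene (vertical marks) with the median of each class (diamonds). Lower panel, number of all 16997 listed genes per bin of 0.25 in mean log2 CPM, with their median (dashed). The broad V-ATPase genes lie in the right tail and the paralogs spread around the median of all genes.

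Of the 13 subunits of the complex, 8 were encoded by several listed genes and 5 by 1. The 8 held 26 genes in all. In 5 of the 8, a single gene took more than 90% of the subunit's summed CPM, and in 4 of the 8 when the prior count was kept. Vha16-1 took 99.0% of the c subunit (Wilson 95% interval 98.9% to 99.1%, counting error only), VhaAC39-1 took 98.9% of the d subunit (98.3% to 99.3%) and VhaPPA1-1 took 97.9% of the c″ subunit (97.4% to 98.3%). Vha14-1 took 96.7% of the F subunit (96.0% to 97.2%), and VhaM9.7-b took 91.3% of the e subunit (90.4% to 92.0%). In the remaining subunits, D, A and a, the highest gene took 87.2%, 51.8% and 48.0%. Over the 35 pairs of genes that share a subunit, 31 ratios had an interval that left out 1.

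**Figure D3:**
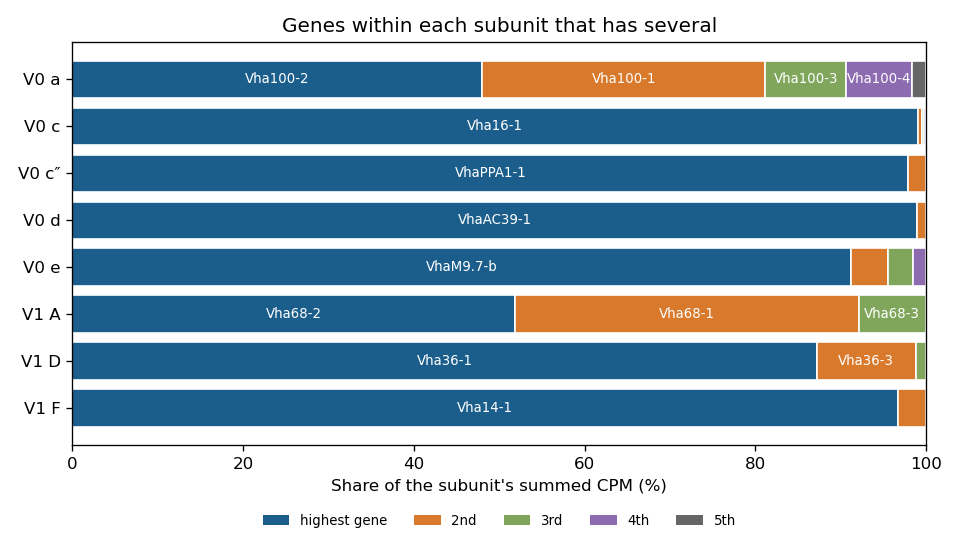
Share of each subunit's summed CPM (prior count removed) taken by each of its genes, for the 8 subunits with several genes, in order of level from left to right. Vha16-1 fills 99.0% of the c bar, while the a bar is split between Vha100-2 (48.0%), Vha100-1 (33.1%), Vha100-3 (9.51%), Vha100-4 (7.73%) and Vha100-5 (1.59%).

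The a subunits, encoded by the Vha100 genes, form the path by which protons enter and leave the ring and steer the pump to its membrane. Their highest gene took the smallest share of any subunit with several genes, 48.0%, close to the 51.8% of Vha68-2 in A. Whether these shares differ beyond the variation between libraries was not tested. The levels of the a subunit genes still spanned 30.2-fold from Vha100-2 to Vha100-5. Vha100-2 had 50.8 CPM and Vha100-1, the synaptic gene, 35.1 CPM, a ratio of 1.45 (interval 1.05 to 2.00). Vha100-3 followed at 10.1 CPM and Vha100-4 at 8.18 CPM, and these were not apart (ratio 1.23, interval 0.851 to 1.78). Vha100-5 was lowest at 1.68 CPM, 34 reads in all. Vha100-4 gave 7.73% of the a subunit reads, with 165 reads over the 12 libraries, or 13.8 in a library of average size. The Wilson interval of this share, 6.66% to 8.93%, covers counting error only and leaves out the variation between libraries. These values pool the Ub6-GG, Ub6-Stop and control flies, so they and the order of the a subunit genes need not hold within any one group. The level of Vha100-4 was 6.21-fold below that of Vha100-2 (interval 4.39 to 8.79). lab, the homeotic gene that marks copper cells and the only such marker looked up here, had 11 reads in all. The midgut digestive enzyme genes betaTry, Jon25Bi and Amy-p had log2 CPM of 9.46, 10.00 and 9.61. Levels of such unlike genes do not give the share of cells of each type. Copper cells are a small share of the midgut, and how Vha100-4 is spread over cell types was not measured. In the release 6 annotation Vha100-4 also overlaps cona on the other strand, and whether the counting used strand is not given in the sources used here. The same limit holds for 3 broad genes and 6 paralogs in all, among them Vha100-5 and Vha16-2, which overlap antisense RNA genes.

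The A subunits, which carry the catalytic sites of V1, showed another kind of sharing. Vha68-2 had 116 CPM and Vha68-1 had 90.4 CPM, levels that were not apart (ratio 1.29, interval 0.941 to 1.76). Vha68-3 had 17.7 CPM, 7.89% of the subunit. This testis gene was expressed 6.57-fold below Vha68-2 (interval 4.74 to 9.09). The testis markers dj, Mst84Db and Mst98Ca were at log2 CPM of 7.89, 8.92 and 6.96. The ovary and female fat body genes Yp1, Yp2 and osk were at 10.87, 9.89 and 7.24, so RNA of both sexes was present in the libraries together. The labels do not give the sex of the flies.

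The D subunits belong to the central rotor. Vha36-1 had 268 CPM, Vha36-3 had 35.6 CPM and Vha36-2 had 3.76 CPM, and all 3 were apart from each other. Vha36-3 was the highest paralog of the whole family, at 11.6% of its subunit, and stood at percentile 81.8 of all genes. Within F, the other small rotor subunit, Vha14-1 had 177 CPM and Vha14-2 had 6.09 CPM, 29.0-fold less (interval 20.3 to 41.4).

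The c subunits showed the steepest order. Vha16-1 was 214-fold above the next gene, Vha16-3 (5.16 CPM, interval of the ratio 149 to 307). Vha16-5 and Vha16-4 had 2.88 and 2.84 CPM, 58 reads each, and were not apart. Vha16-2 and Vha16-3 are direct neighbours on the same strand of chromosome arm 3L, yet they had about 2 and 104 reads. The related ring subunit c″ had 171 CPM from VhaPPA1-1 and 3.66 CPM from VhaPPA1-2. For subunit d, which couples the ring to the rotor, VhaAC39-1 had 87.2 CPM and VhaAC39-2 had 0.934 CPM (19 reads, exact Poisson interval 11.4 to 29.7). The e subunit, a small membrane protein, had 214 CPM from VhaM9.7-b. VhaM9.7-c, VhaM9.7-a and VhaM9.7-d had 9.93, 6.97 and 3.62 CPM. VhaM9.7-c overlaps Teh2 on the same strand in the release 6 annotation, so its reads cannot be told from those of Teh2 by position alone.

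Among the subunits with 1 gene, Vha13 (G) had 1412 CPM and Vha44 (C), which links V1 to V0, had 557 CPM. Vha55 (B), the partner of A in the catalytic ring, had 297 CPM and Vha26 (E), a stalk subunit, 176 CPM. VhaSFD (H), which restrains ATP hydrolysis when the sectors are apart, had 97.5 CPM. These single genes differed by up to 14.5-fold from each other. In a complex, A, B, E and G are present in several copies, as is c in the ring, whereas C, D, F, H, a and d are present once. Summed over their genes, the repeated subunits had 224 CPM (A), 297 CPM (B), 176 CPM (E), 1412 CPM (G) and 1114 CPM (c). The subunits present once had 557 CPM (C), 307 CPM (D), 183 CPM (F), 97.5 CPM (H), 106 CPM (a) and 88.2 CPM (d). The highest values, G and c, belonged to repeated subunits, but the ranges overlapped, with C and D above A, B and E, and F above E.

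By sector, the median over subunits of summed log2 CPM was 7.45 for the 5 V0 subunits and 8.01 for the 8 V1 subunits, a difference of -0.56. V0 subunits ranged from 88.2 to 1114 CPM and V1 subunits from 97.5 to 1412 CPM, so the sectors overlapped over most of their range. By gene, the contrast was larger, with a median log2 CPM of 3.13 for the 18 V0 genes and 6.88 for the 13 V1 genes. V0 holds more of the low paralogs. The accessory genes VhaAC45 and VhaM8.9 (now named ATP6AP2), membrane proteins that accompany the pump, had 553 and 115 CPM, and VhaAC45 was not apart from Vha44 (ratio of Vha44 to VhaAC45 1.01, interval 0.740 to 1.37).

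In the order of the 33 genes, 9 of the 32 steps between neighbours had an interval that left out 1 and 23 did not. Neighbours could be told apart between Vha16-1 and Vha44, between VhaAC45 and Vha55, and between VhaPPA1-1 and Vha68-2. They could also be told apart on both sides of Vha100-2, the a subunit gene at 50.8 CPM, and on both sides of Vha68-3 at 17.7 CPM. The last steps of this kind were those between Vha16-4 and Vha100-5 and between VhaAC39-2 and Vha16-2. The genes from Vha100-3 at 10.1 CPM to Vha16-4 at 2.84 CPM formed an unbroken run in which no neighbours were apart. Genes further from each other in this run could still differ. VhaM9.7-c was apart from VhaM9.7-d (ratio 2.74, interval 1.83 to 4.12) but not from VhaM9.7-a (ratio 1.42, interval 0.979 to 2.07).

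The classes also differed in gene structure. In the release 6 annotation (the reads were aligned to the earlier dm3 build, so no coordinates are given), 3 of the 17 broad genes have 1 coding exon (17.6%), against 9 of the 16 paralogs (56.2%), and 20.9% of all 13986 protein-coding genes do. The median was 3 coding exons for broad genes and 1 for paralogs. The 3 broad genes with 1 coding exon, Vha36-1, Vha14-1 and VhaPPA1-1, had log2 CPM of 8.07, 7.47 and 7.43. Paralogs with 1 coding exon had a median log2 CPM of 2.28 (0.36 to 3.49, 9 genes) and those with more a median of 2.86 (1.09 to 5.20, 7 genes). Among genes with 1 coding exon the classes did not overlap in level, whereas among the others they met at Vha36-3 (5.20) and Vha100-1 (5.18).

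**Figure D4:**
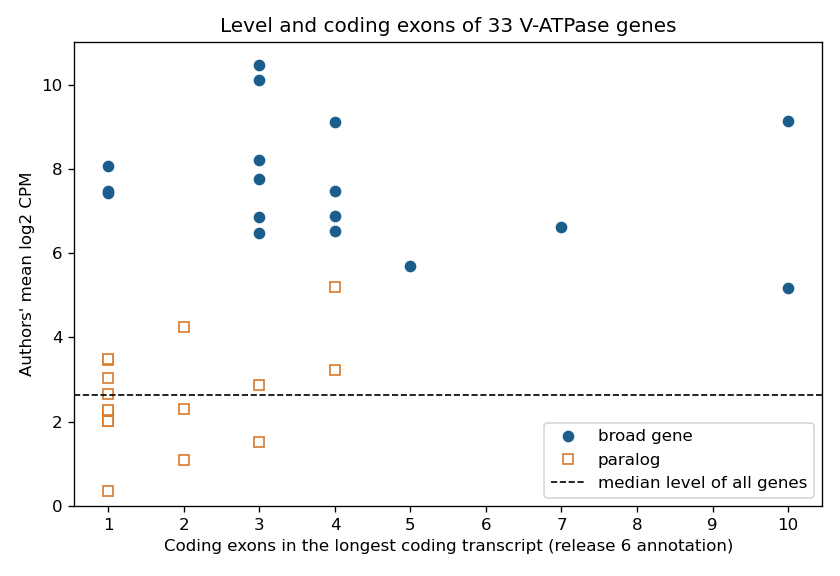
Authors' mean log2 CPM against the number of coding exons in the longest coding transcript, for 17 broad genes (filled circles) and 16 paralogs (open squares), with the median level of all genes dashed. At 1 coding exon the 3 broad genes lie above 7 on the vertical axis and the 9 paralogs at or below 3.49.

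Several members lie side by side in the genome. Vha68-2 and Vha68-3 are adjacent on arm 2L, with Yip1d1 between Vha68-3 and Vha68-1, and their levels were 116, 17.7 and 90.4 CPM for Vha68-2, Vha68-3 and Vha68-1. Vha100-2 and Vha100-4 are adjacent on the same strand of arm 3R, at 50.8 and 8.18 CPM. VhaPPA1-1 and VhaPPA1-2 lie on the same strand of 3R with RpS5b between them, at 171 and 3.66 CPM. In each of these groups the members differed by more than the error, except Vha68-2 and Vha68-1.

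Of the listed genes that act on the pump, or may do so, all but CG7071 were expressed at moderate levels. Mitf, the transcription factor known to activate V-ATPase genes, had a log2 CPM of 4.94 (about 596 reads). The rabconnectins Rbcn-3A and Rbcn-3B, which promote assembly of V1 with V0, had log2 CPM of 4.43 and 5.51. CG31030, which the annotation names as a relative of VhaAC45, had a log2 CPM of 3.67. CG5969, a candidate assembly factor, had a log2 CPM of 4.02. CG7071, another candidate, had no read, which allows up to 3 reads over the 12 libraries (a one-sided limit), but it shares its transcript locus with Muted, so reads from it can have been listed elsewhere. The 5 that had reads lay between the median paralog and the median broad gene of the pump.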

How the data were processed

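Total RNA of whole flies was made into 3′ libraries (QuantSeq FWD) and sequenced as 50 bp reads, processed with CASAVA 1.8.2 per the labels. The authors aligned reads to dm3, tabulated them per gene and compared the groups with edgeR. They deposited 2 tables of 16997 genes. Each holds the authors' mean log2 CPM, identical in both and used here, and 4 columns of the authors' own comparison (log2 fold change, likelihood ratio, p-value and FDR), which were not used. No column of single samples is used. Strandedness of the counting and the treatment of reads that match several genes are not given in the sources used here, so near-identical copies, overlapping genes and antisense genes are uncertain.

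Library sizes and a dispersion were solved for from the levels of genes with 1 read. All 382 genes with 2 reads then lay at a predicted level (tolerance 1e-06 on the log2 scale). Recovery was tested on simulated data (3000 genes) made with the solved library sizes and dispersion, so it could not test those. The median error in a gene's reads was 2.27% in the class from 1 read, 1.35% from 10 reads and 1.67% from 100 reads. In each class, 95% of errors were at most 7.51%, 3.93% and 4.68%, in that order. Read totals in the text are therefore approximate. The recovered library sizes summed to 20213076. Intervals on reads and shares (95%) cover counting error only. Analysis used numpy 2.4.6, pandas 2.3.3 and scipy 1.17.1. Members and classes were chosen with earlier results of these data known, and every member is named or counted. Levels with the prior count kept or removed, means, other class borders and leading genes alone were tried as alternatives. Markers of eye, neurons, muscle, gut, tubule, gonads and accessory gland were listed to check the whole-fly label. Gene symbols were matched to annotation release 6, 32 of 33 directly and VhaM8.9 by synonym.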

Additional observations from a re-analysis of the deposited data

How the results depend on the processing

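Removing the prior count moved the difference between the median broad gene and the median paralog to 5.32, and placing Vha68-1 and Vha100-1 with the paralogs moved it to 4.71. Using means (4.99) left it within counting error. Keeping only members with a read could not change it, since all 33 have one, and the other table gave the same level for every member. With CPM as deposited, the leading gene's share came to 98.6% in subunit c, 89.95% in e, 97.3% in c″ and 97.7% in d, so that 4 and not 5 of the 8 subunits had a gene above 90%, and the shares in A, D, F and a and that of Vha100-4 (8.38%) stayed within their intervals. With the leading gene of each subunit alone, the difference of V0 from V1 was -0.35, which by construction leaves out Vha68-1 and every other lower gene of a subunit. Among genes with a read only, the members' median stood at percentile 79.1. Removing the prior count lowered the level of 10 paralogs beyond counting error, and of no broad gene.

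No paired analysis was possible because each gene has 1 value for all samples together. The planned search for promoter motifs and the alignment of paralog proteins were not run, since no sequences were used here. Depth limits the weakest paralogs, 8 of which rest on fewer than 100 reads. Error between libraries was taken from 1 dispersion for all genes, so a gene that varies more between libraries, groups or sexes has a wider interval than given.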

Other observations

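The synaptic gene Vha100-1 had a log2 CPM of 5.18, against 5.66, 6.68 and 6.30 for the neuronal genes elav, nSyb and Syt1. The eye gene ninaE was at 7.90, the flight muscle genes Act88F and Mhc at 10.60 and 11.65, and the male accessory gland genes Acp26Aa and Acp36DE at 7.87 and 6.68. The Malpighian tubule, whose transport is driven by the V-ATPase, had Uro at 4.64 and CapaR at 1.49, both below every broad pump gene.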
